A study of Homo sapiens with 12 samples.

Results

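The SOX genes SOX2, SOX4, SOX9, SOX12 and SOX13 were followed across 4 groups of 3 RNA libraries from A549, a human cell line grown out of a lung adenocarcinoma. They are 5 of the 60676 gene rows counted and were chosen by symbol and by their measured level, as SOX family genes expressed in lung carcinoma cells. Their level is therefore given as a description. All 5 members passed the filter on low counts, as did 16192 genes in all. The groups were LETS1 cells given TGF-β, LETS1 cells in ligand buffer, Co.vec cells given TGF-β and Co.vec cells in ligand buffer. LETS1 cells carried a lentiviral construct expressing the long non-coding RNA LETS1, and Co.vec cells the empty vector pCDH-EF1a-PURO. Every group had been transduced with lentivirus and then selected with puromycin, at 1 ng/mL per the labels. TGF-β was given at 5 ng/mL, and both the ligand and the buffer acted for 4 h. Replicates are labelled as biological, with no mention of separate transductions. P-values thus measure the spread between these samples, which may be technical.

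SOX proteins are transcription factors that bind and bend DNA through an HMG box, a domain related to that of the sex-determining factor SRY. They are sorted into groups by the likeness of that box. SOX2 belongs to group B1, SOX4 and SOX12 to group C, SOX13 to group D and SOX9 to group E. In the lung SOX2 marks the airway lineage and SOX9 the growing distal tips of the embryonic organ. SOX4 is a known target of TGF-β in several epithelial cells and takes part in epithelial to mesenchymal transition. In glioma-initiating cells TGF-β has been described to raise SOX4, which in turn raises SOX2.

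Each library held 19705135 to 20351043 fragments assigned to genes, and 10.1% to 10.9% of all fragments matched several genes and were given to none. Levels are CPM, counts scaled to a common library size, with that size corrected by the trimmed mean of M-values (TMM). The ligand check PMEPA1, a target gene of SMAD proteins, rose with TGF-β in LETS1 cells (log2 fold change 2.18, edgeR adjusted p = 2.81e-31) and in Co.vec cells (2.61, 7.96e-34). Of the markers of the cell type, the 5 epithelial genes summed to 7381 to 7727 CPM in LETS1 cells given TGF-β and to 5997 to 6323 CPM in LETS1 cells in buffer. Their sum was 8731 to 9751 CPM in Co.vec cells given TGF-β and 7949 to 8605 CPM in Co.vec cells in buffer. With LETS1 3 of these 5 genes fell in each ligand state, against 6.56% of all genes tested in buffer and 6.50% under TGF-β. With TGF-β 2 rose and 1 fell in each background. Among all genes tested 19.7% rose and 19.1% fell in LETS1 cells, and 21.1% and 18.6% in Co.vec cells. The gene that fell was CDH1, with 71.3 to 76.1 CPM given TGF-β and 97.0 to 98.7 CPM in buffer in LETS1 cells. In Co.vec cells CDH1 had 66.7 to 75.5 CPM with TGF-β and 92.8 to 100 CPM in buffer. The part of these genes in the SOX results was not tested. Of 6 alveolar type 2 markers ABCA3 alone had enough counts to test, and the lineage factor NKX2-1 never exceeded 2 fragments in a library. No gene row carried the symbol LETS1 (0 rows), and the level of the overexpressed RNA was not checked here.

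The 250 bases before the RefSeq start (build GRCh38.p14, plus strand, 5′ to 3′) are shown for SOX2 and SOX12, which fell together with the ligand, and for SOX13, which rose. Windows were matched for SOX2, SOX4, SOX12 and SOX13, which are 4 of the 5 members. SOX9, which also fell, had no window in the promoter set used. Capitals mark matches, on either strand, to the SMAD box CAGAC, the SOX-type motifs ACAAAG and ACAATG, the TATA motif TATAAA and the CCAAT box. No match in these windows overlapped another.
SOX2 (chr3:181711675-181711924): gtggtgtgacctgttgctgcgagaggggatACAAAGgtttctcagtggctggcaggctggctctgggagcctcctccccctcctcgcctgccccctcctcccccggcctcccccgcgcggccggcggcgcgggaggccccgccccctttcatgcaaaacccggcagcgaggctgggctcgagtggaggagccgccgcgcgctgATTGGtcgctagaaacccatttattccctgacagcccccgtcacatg
SOX12 (chr20:325302-325551): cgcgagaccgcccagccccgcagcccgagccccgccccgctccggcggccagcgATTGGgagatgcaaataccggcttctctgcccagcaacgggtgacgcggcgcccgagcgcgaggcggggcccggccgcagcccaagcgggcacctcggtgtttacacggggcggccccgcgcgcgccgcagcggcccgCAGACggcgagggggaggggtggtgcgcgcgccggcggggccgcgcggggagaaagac
SOX13 (chr1:204072865-204073114): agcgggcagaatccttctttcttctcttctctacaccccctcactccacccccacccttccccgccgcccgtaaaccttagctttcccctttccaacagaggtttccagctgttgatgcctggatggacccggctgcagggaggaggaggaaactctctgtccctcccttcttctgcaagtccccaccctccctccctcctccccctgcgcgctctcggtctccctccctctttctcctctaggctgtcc

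The SOX2 window held 1 ACAAAG, its first base 220 bases before the start, and 1 CCAAT box read as ATTGG on the plus strand, 47 bases before it. The SOX12 window held 1 CAGAC, 58 bases before the start, and 1 ATTGG at 196. The SOX13 window held none of the 5 motifs. Over 27305 promoter windows of the same length, 37.8% held CAGAC, 13.7% ACAAAG, 9.45% ACAATG, 11.1% TATAAA and 33.0% CCAAT, counting both strands. The matches describe these letters and not bound sites. G and C made up 68.8% of the bases before SOX2, 79.2% before SOX12 and 60.8% before SOX13, against a median of 58.0% over all windows. The window before the RefSeq start of SOX4 held 4 CCAAT boxes and no other match, and 48.8% of its bases were G or C. In GENCODE 29 that window lies inside the SOX4 exon and is not printed.

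TGF-β changed all 5 members in both vector backgrounds, and in the same directions. The question was which genes respond to 4 h of ligand with and without LETS1. SOX2, SOX12 and SOX9 fell, and SOX4 and SOX13 rose. The fall of SOX2 was 6.20-fold in LETS1 cells and 4.95-fold in Co.vec cells, and the rise of SOX4 was 2.01-fold in LETS1 cells and 2.29-fold in Co.vec cells. Of all genes tested in LETS1 cells, 38.7% were called, 19.7% as higher and 19.1% as lower. In Co.vec cells 39.7% were called, 21.1% as higher and 18.6% as lower. Groups without overlap were found for 24.0% of all genes on the higher side and 24.9% on the lower side in LETS1 cells, and for 24.4% and 22.9% in Co.vec cells. The median absolute log2 fold change over all genes tested was 0.19 in LETS1 cells and 0.20 in Co.vec cells.

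**Figure D1:**
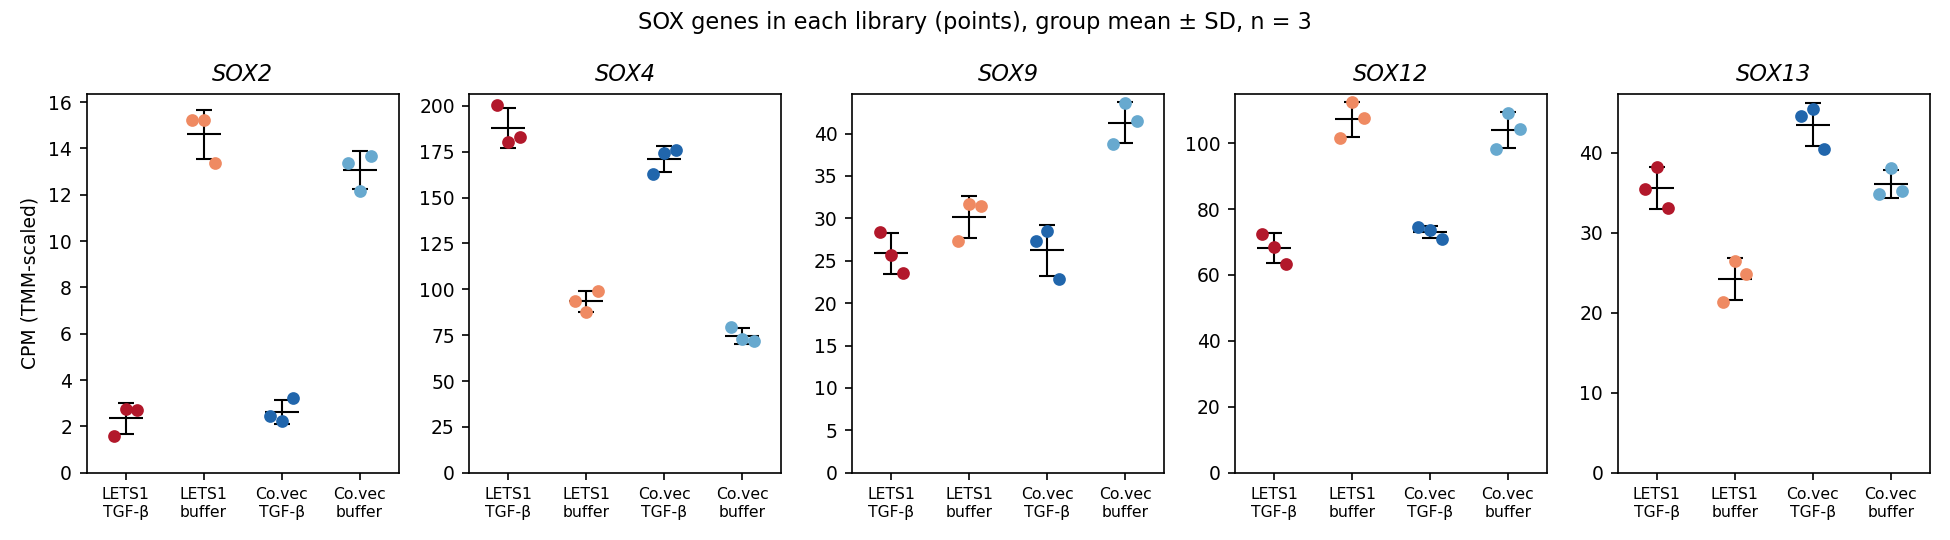
CPM of each SOX gene (y axis, TMM-scaled, starting at 0 and with its own scale per panel) in the 12 libraries (points), with the mean and SD of each group of 3. SOX2 lies between 1.59 and 3.21 CPM in the 6 libraries given TGF-β and between 12.1 and 15.2 CPM in the 6 in buffer, while SOX4 lies above in every library given TGF-β.

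SOX2 is a factor of pluripotent and neural stem cells and of airway epithelium (ENSG00000181449, GRCh38 chromosome 3, 181711924 to 181714436, plus strand, 1 exon). It had 1.59, 2.76 and 2.69 CPM in LETS1 cells given TGF-β, against 15.2, 15.2 and 13.4 CPM in LETS1 cells in buffer. Co.vec cells had 2.47, 2.22 and 3.21 CPM with TGF-β, against 13.4, 12.1 and 13.7 CPM in buffer. All libraries with ligand lay below all libraries in buffer in both backgrounds. The log2 fold change was -2.63 in LETS1 cells (SE 0.135, 95% interval -2.90 to -2.36, edgeR adjusted p = 2.31e-19) and -2.31 in Co.vec cells (SE 0.134, -2.58 to -2.04, 1.25e-17). By size this was fall number 10 of 3085 in LETS1 cells and number 8 of 3011 in Co.vec cells. With ligand the counts behind these levels were 31 to 55 fragments per library in LETS1 cells and 43 to 64 in Co.vec cells. SOX2 lies within SOX2-OT, a non-coding gene on the same strand that shares no exon bases with it and had 0 to 6 fragments per library.

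SOX12, a group C factor (ENSG00000177732, chromosome 20, 325595 to 330224, plus strand, 1 exon), fell by a smaller amount. Its levels were 72.4, 68.6 and 63.3 CPM in LETS1 cells given TGF-β, against 102, 112 and 107 CPM in LETS1 cells in buffer. Co.vec cells had 74.5, 73.5 and 71.0 CPM with TGF-β and 98.2, 109 and 104 CPM in buffer. The groups did not overlap in either background. The log2 fold change was -0.65 in LETS1 cells (SE 0.053, edgeR adjusted p = 2.39e-13) and -0.51 in Co.vec cells (SE 0.053, 1.87e-10). The gene lies within NRSN2-AS1 on the other strand without sharing exon bases in GENCODE 29. NRSN2-AS1 fell too, by 0.52 on the log2 scale in LETS1 cells (edgeR adjusted p = 0.000182) and by 0.32 in Co.vec cells (0.0223). The strand setting of the counting is not given in the sources used here, and the part of shared reads was not tested.

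SOX9, the master factor of cartilage and a factor of distal lung progenitors (ENSG00000125398, chromosome 17, 72121020 to 72126420, plus strand), fell clearly in Co.vec cells. There it had 27.3, 28.5 and 22.8 CPM with TGF-β, against 38.7, 43.6 and 41.5 CPM in buffer, without overlap. In LETS1 cells it had 28.3, 25.7 and 23.6 CPM with TGF-β and 27.3, 31.7 and 31.4 CPM in buffer, and the groups overlapped. The 3 Co.vec libraries in buffer stood above the other 9 libraries. The log2 fold change with ligand was -0.65 in Co.vec cells (SE 0.076, edgeR adjusted p = 7.07e-09) and -0.22 in LETS1 cells (SE 0.078, 0.0235). The call in LETS1 cells was lost without LETS1 buffer replicate 2 (edgeR adjusted p = 0.125) or 3 (0.0957), and without LETS1 TGF-β replicate 2 (0.0665) or 3 (0.160).

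SOX4, a group C factor tied to epithelial to mesenchymal transition (ENSG00000124766, chromosome 6, 21592768 to 21598619, plus strand, 1 exon), was the member with the largest rise. It had 200.2, 180.2 and 183 CPM in LETS1 cells given TGF-β, against 93.8, 87.6 and 98.8 CPM in LETS1 cells in buffer. Co.vec cells had 163, 174 and 176 CPM with TGF-β, against 79.3, 72.7 and 71.7 CPM in buffer. Every library with ligand stood above every library in buffer. The log2 fold change was 1.01 in LETS1 cells (SE 0.051, 95% interval 0.90 to 1.11, edgeR adjusted p = 2.07e-19) and 1.20 in Co.vec cells (SE 0.052, 1.09 to 1.30, 1.63e-21). By size these were rises number 547 of 3187 and number 465 of 3416. An antisense gene (ENSG00000283480) shares 168 of the 5852 exon bases of SOX4, or 2.87%, and had 3 fragments in all 12 libraries together. Without a strand setting, fragments in the shared bases could have been set aside as matching several genes.

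SOX13, a group D factor that can bind the Wnt effector TCF7 (ENSG00000143842, chromosome 1, 204073115 to 204127743, plus strand), rose with the ligand in both backgrounds. It had 35.4, 38.2 and 33.0 CPM in LETS1 cells given TGF-β, against 21.3, 26.4 and 24.9 CPM in LETS1 cells in buffer. Co.vec cells had 44.6, 45.4 and 40.4 CPM with TGF-β and 34.8, 38.0 and 35.3 CPM in buffer. No group with ligand overlapped its buffer group. The log2 fold change was 0.56 in LETS1 cells (SE 0.072, edgeR adjusted p = 3.88e-08) and 0.27 in Co.vec cells (SE 0.067, 0.00126).

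**Figure D2:**
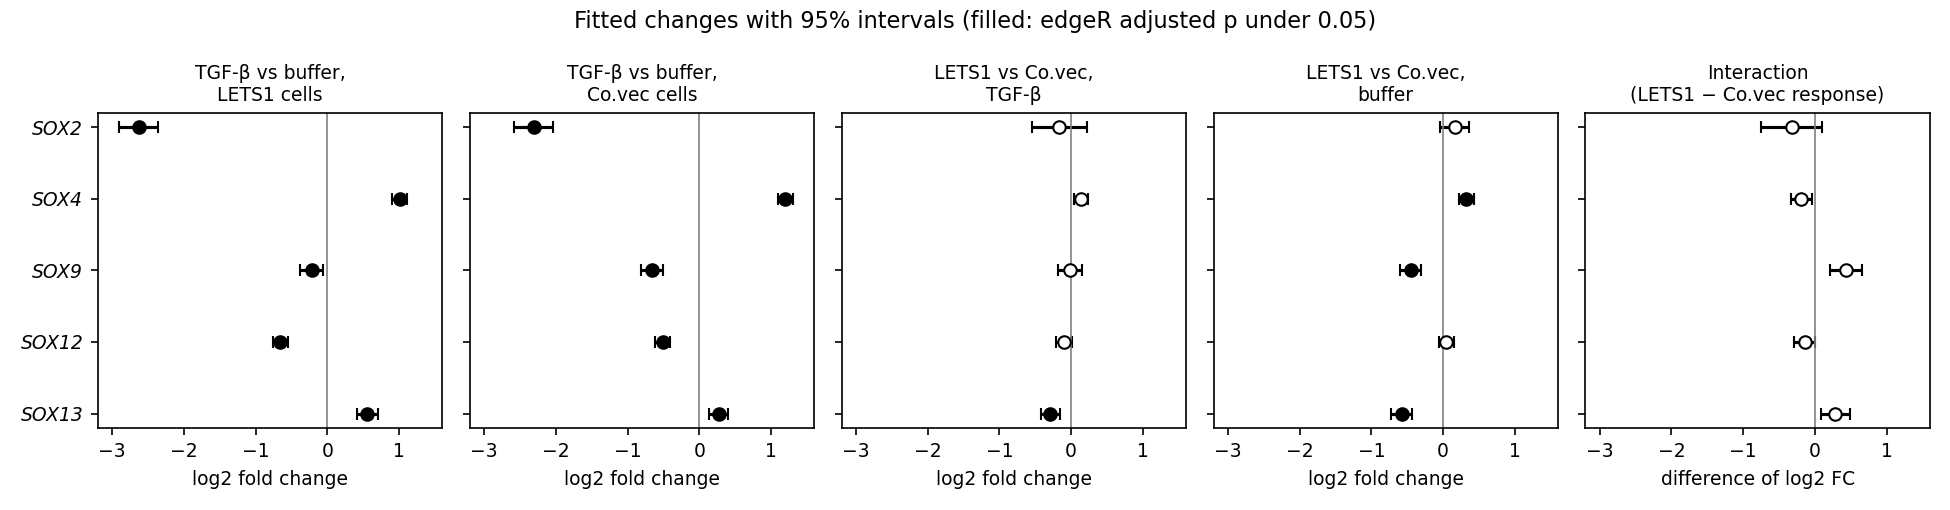
Fitted log2 fold change (x axis; in the last panel the difference of 2 log2 fold changes) of each SOX gene (rows) in 5 comparisons, with 95% intervals; filled points have an edgeR adjusted p under 0.05. All 5 genes are filled in both TGF-β comparisons, 3 in LETS1 against Co.vec in buffer, 1 in the same comparison with TGF-β and 0 in the interaction.

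LETS1 changed 3 of the 5 members in buffer: SOX4 rose, and SOX9 and SOX13 fell. This comparison asks what LETS1 does without added ligand, and 15.1% of all genes tested were called in it, 8.57% as higher and 6.56% as lower. SOX4 averaged 93.4 ± 5.62 CPM in LETS1 cells and 74.6 ± 4.14 CPM in Co.vec cells (SD, n = 3 each). Its log2 fold change was 0.33 (SE 0.054, edgeR adjusted p = 1.35e-05). SOX13 averaged 24.2 ± 2.60 CPM in LETS1 cells and 36.0 ± 1.74 CPM in Co.vec cells (SD, n = 3 each), and fell by 0.57 on the log2 scale (edgeR adjusted p = 6.32e-08, SE 0.072). SOX9 averaged 30.1 ± 2.48 CPM in LETS1 cells and 41.3 ± 2.42 CPM in Co.vec cells (SD, n = 3 each). It fell by 0.45 on the log2 scale (SE 0.074, edgeR adjusted p = 1.73e-05). For each of these 3 genes the groups did not overlap, as held for 16.8% of all genes tested on the higher side and 14.2% on the lower side. The falls of SOX9 with LETS1 in buffer and with ligand in Co.vec cells share the 3 Co.vec buffer libraries.

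SOX2 and SOX12 did not pass in buffer. SOX2 averaged 14.6 ± 1.06 CPM in LETS1 cells and 13.1 ± 0.815 CPM in Co.vec cells (SD, n = 3 each), and its log2 fold change of 0.16 had a 95% interval of -0.04 to 0.36 (edgeR adjusted p = 0.312). SOX12 stood at 0.04, with an interval of -0.06 to 0.15 (edgeR adjusted p = 0.641). Changes of SOX2 above 1.28-fold, and of SOX12 above 1.11-fold, lie outside these intervals.

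With TGF-β present, 1 of the 5 members differed between LETS1 and Co.vec cells, against 14.1% of all genes tested, of which 7.58% were higher and 6.50% lower. SOX13 averaged 35.6 ± 2.60 CPM in LETS1 cells and 43.5 ± 2.68 CPM in Co.vec cells (SD, n = 3 each). It fell by 0.29 on the log2 scale (SE 0.067, edgeR adjusted p = 0.00207), without overlap, as held for 14.5% of all genes on the higher side and 14.2% on the lower side. SOX4 averaged 188 ± 10.9 CPM in LETS1 cells and 171 ± 7.21 CPM in Co.vec cells, and its log2 fold change of 0.14 did not pass (95% interval 0.04 to 0.24, edgeR adjusted p = 0.0621). It passed without Co.vec buffer replicate 1 (edgeR adjusted p = 0.0423) or Co.vec TGF-β replicate 3 (0.0447). SOX2 stood at -0.16 (95% interval -0.55 to 0.22, edgeR adjusted p = 0.639), SOX9 at -0.02 (-0.18 to 0.14, 0.917) and SOX12 at -0.10 (-0.21 to 0.01, 0.245).

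The interaction, the ligand response in LETS1 cells minus that in Co.vec cells, was passed by 0 of the 5 members with edgeR and by 0 with DESeq2, against 0.679% of all genes tested, 0.0803% as higher and 0.599% as lower. At an unadjusted p under 0.05, 3 members passed. SOX9 came nearest, with a difference of 0.43 (SE 0.109, 95% interval 0.21 to 0.66, edgeR adjusted p = 0.0502), its fall being 0.65 on the log2 scale in Co.vec cells and 0.22 in LETS1 cells. It passed with RLE size factors (edgeR adjusted p = 0.0409), with no filter on low counts (0.000983), and without Co.vec buffer replicate 1 (0.0217), Co.vec TGF-β replicate 2 (0.0220), LETS1 buffer replicate 2 (0.0406) or LETS1 TGF-β replicate 3 (0.0187). SOX13 had a difference of 0.29 (95% interval 0.09 to 0.48, edgeR adjusted p = 0.318) and SOX4 one of -0.19 (-0.34 to -0.04, 0.427). SOX12 stood at -0.14 (-0.30 to 0.01, 0.661) and SOX2 at -0.33 (-0.75 to 0.10, 0.797).

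Levels of different genes were compared as CPM per kilobase of exon, using the union of all GENCODE 29 exons of a gene. That union runs to 7420 bases over the many isoforms of SOX13 and can understate its level. With TGF-β the order among the 5 members was the same in both backgrounds: SOX4, SOX12, SOX9, SOX13 and SOX2. In LETS1 cells given TGF-β the levels were 32.1, 14.7, 6.57, 4.79 and 0.934 CPM per kilobase, and no neighbours overlapped. In Co.vec cells given TGF-β they were 29.2, 15.8, 6.66, 5.86 and 1.05 CPM per kilobase, and SOX9 and SOX13 overlapped. In buffer the order of both backgrounds was SOX12, SOX4, SOX9, SOX2 and SOX13. LETS1 cells in buffer had 23.1, 15.97, 7.66, 5.81 and 3.26 CPM per kilobase, with no overlap between neighbours. Co.vec cells in buffer had 22.4, 12.7, 10.5, 5.20 and 4.86 CPM per kilobase, and SOX2 and SOX13 overlapped. By CPM without length SOX13 ranked above SOX9 in the groups with ligand and above SOX2 in the groups in buffer.

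SOX4 thus took the first place from SOX12 when ligand was present. Of the summed level per kilobase of all 19 SOX gene rows, SOX4 made up 47.7% ± 1.16 in LETS1 cells given TGF-β and 26.6% ± 1.87 in LETS1 cells in buffer (SD, n = 3 each). In Co.vec cells its share was 42.7% ± 2.89 with TGF-β and 20.8% ± 1.55 in buffer. SOX2 made up 1.40% ± 0.447 in LETS1 cells given TGF-β and 9.70% ± 0.902 in LETS1 cells in buffer. Its share in Co.vec cells was 1.54% ± 0.361 with TGF-β and 8.49% ± 0.689 in buffer. The summed level itself differed less, at 67.3 ± 3.59 CPM per kilobase in LETS1 cells given TGF-β and 60.03 ± 1.96 in LETS1 cells in buffer. In Co.vec cells it was 68.5 ± 2.39 CPM per kilobase with TGF-β and 61.3 ± 1.39 in buffer.

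**Figure D3:**
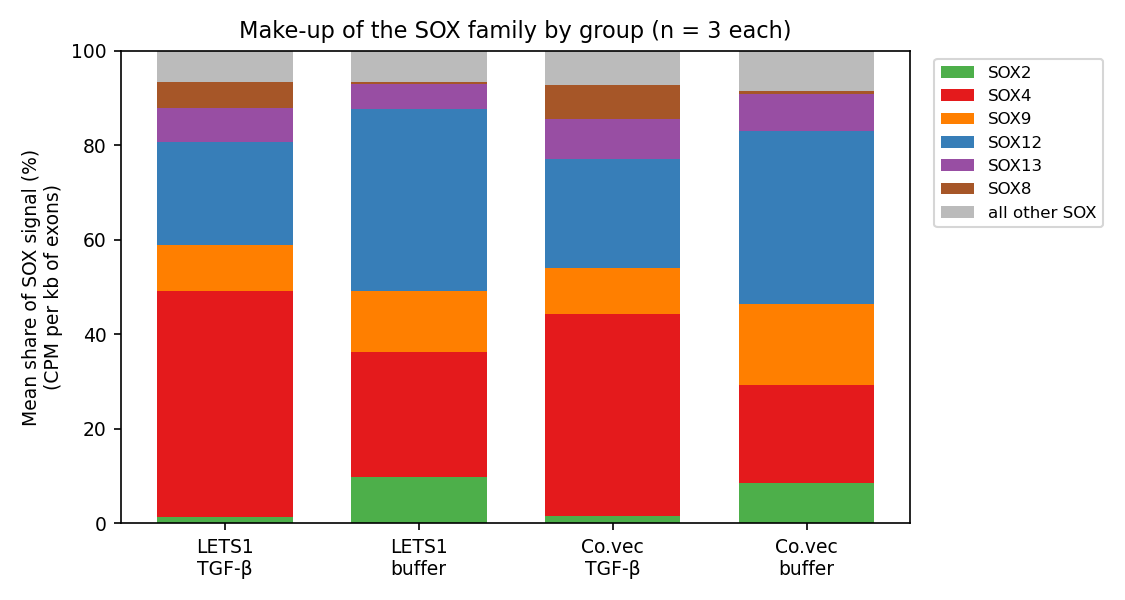
Mean share of each SOX gene in the summed level of all 19 SOX gene rows (y axis, percent of CPM per kilobase of exon) in each group of 3 libraries (bars). SOX4 takes 47.7% and 42.7% in the groups given TGF-β, against 26.6% and 20.8% in buffer, SOX12 and SOX2 take less with ligand, and SOX8 shows as a visible band with ligand only.

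Among the other 14 SOX gene rows, 7 had enough counts to test, 4 had at most 5 fragments in any library, and SOX1, SOX5 and SOX14 had 0 in all 12 libraries. For those 3 genes a count of 0 allows up to 3 fragments per library, or 0.146 to 0.155 CPM, by counting error only. SOX8, a group E relative of SOX9, rose with the ligand more than any member. It had 18.0, 15.5 and 15.6 CPM in LETS1 cells given TGF-β, against 1.27, 0.932 and 0.928 CPM in LETS1 cells in buffer. Co.vec cells had 30.8, 22.4 and 13.8 CPM with TGF-β, against 1.63, 1.73 and 1.75 CPM in buffer. The groups were far apart, while the 3 Co.vec libraries with ligand spread widely. The log2 fold change was 3.96 in LETS1 cells (SE 0.418, edgeR adjusted p = 5.87e-05) and 3.70 in Co.vec cells (SE 0.361, 3.37e-05). Per kilobase of exon SOX8 averaged 3.68 in LETS1 cells given TGF-β and 5.03 in Co.vec cells given TGF-β. This was above the member SOX2, which averaged 0.934 and 1.05 in those groups. Between LETS1 and Co.vec cells it stood at -0.45 with TGF-β (edgeR adjusted p = 0.292) and at -0.71 in buffer (0.576), and the first passed without Co.vec TGF-β replicate 3 (edgeR adjusted p = 8.94e-07). The second passed when the 6 libraries were fitted alone (0.0315).

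SOX21, a group B2 factor that can oppose group B1 factors such as SOX2, also fell with the ligand. It had 0.513, 0.502 and 0.813 CPM in LETS1 cells given TGF-β, against 1.66, 1.32 and 1.90 CPM in LETS1 cells in buffer. Co.vec cells had 0.873, 0.824 and 0.753 CPM with TGF-β and 4.30, 4.36 and 3.91 CPM in buffer. Groups with ligand did not overlap their buffer groups. It fell by 1.41 on the log2 scale with ligand in LETS1 cells (edgeR adjusted p = 2.94e-05) and by 2.35 in Co.vec cells (1.76e-12). LETS1 lowered it in buffer, with a log2 fold change of -1.36 (edgeR adjusted p = 1.10e-07), and with TGF-β it stood at -0.42 (0.421). The falls of SOX21 with LETS1 in buffer and with ligand in Co.vec cells share the Co.vec buffer libraries, which stood above all others. The interaction of SOX21 did not pass. With a library left out it ranged from 0.67 to 1.07 (edgeR adjusted p from 0.429 to 0.732).

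**Figure D4:**
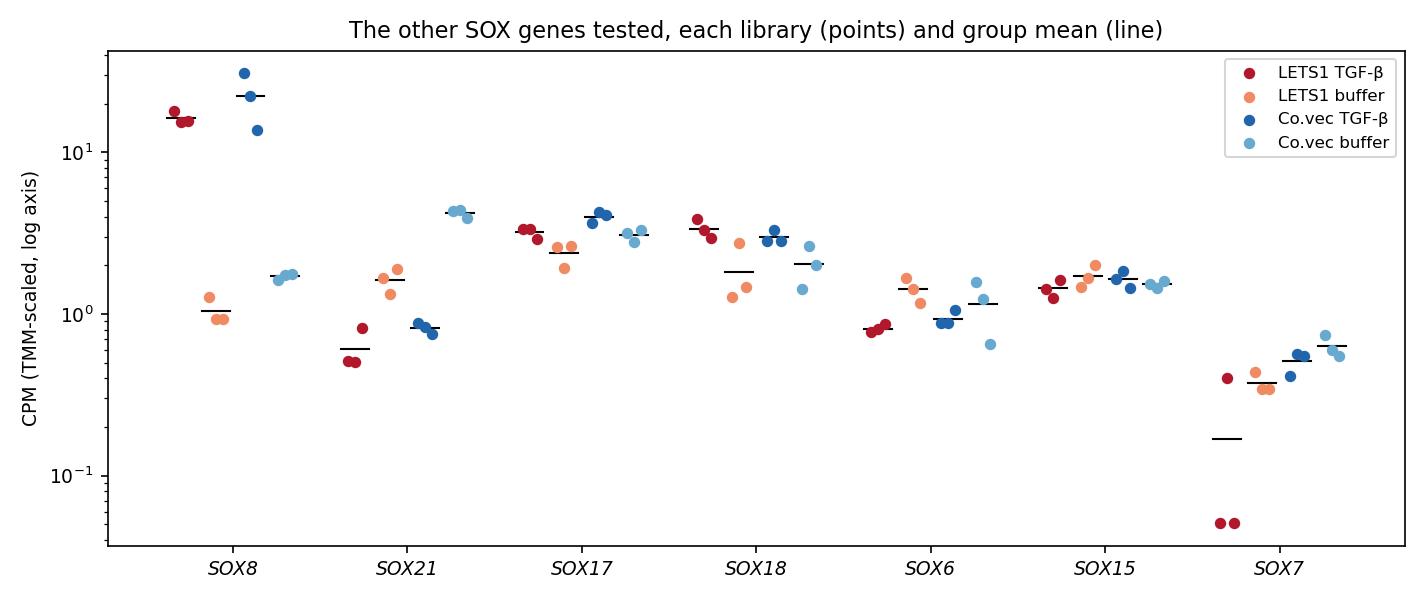
CPM (y axis, log scale) of the 7 other SOX genes with enough counts to test, in each library (points, coloured by group) with the group mean (line). SOX8 is at 13.8 to 30.8 CPM in the 6 libraries given TGF-β and at 0.928 to 1.75 CPM in the 6 in buffer, and SOX21 is lower with ligand in both backgrounds.

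Of the remaining 5, the vascular group F factors SOX17 and SOX18 rose with ligand in both backgrounds at low levels. SOX18 averaged 3.37 ± 0.450 CPM in LETS1 cells given TGF-β and 1.83 ± 0.803 CPM in LETS1 cells in buffer (log2 fold change 0.88, edgeR adjusted p = 0.00130), and in Co.vec cells its log2 fold change was 0.56 (0.0407). SOX17 had log2 fold changes of 0.42 in LETS1 cells (edgeR adjusted p = 0.0394) and 0.37 in Co.vec cells (0.0461). Both calls in Co.vec cells were lost with DESeq2 (adjusted p = 0.0736 for SOX18 and 0.127 for SOX17). SOX18 there was also lost without Co.vec buffer replicate 1 or 3 or any 1 of the Co.vec TGF-β replicates (edgeR adjusted p up to 0.214). The call of SOX17 in Co.vec cells was lost without Co.vec buffer replicate 1 or 2, Co.vec TGF-β replicate 2 or 3, or LETS1 TGF-β replicate 2 (edgeR adjusted p up to 0.161), and with no filter (0.0836). In LETS1 cells SOX17 was lost without LETS1 buffer replicate 2 or LETS1 TGF-β replicate 1 or 2 (up to 0.206), with no filter (0.0585), and with DESeq2 (0.0970). SOX6, a group D relative of SOX13, fell by 0.80 on the log2 scale with ligand in LETS1 cells (edgeR adjusted p = 0.0204), which was lost without LETS1 buffer replicate 1 or LETS1 TGF-β replicate 1 or 2 (up to 0.0993), and with DESeq2 (0.0669). SOX7 was lower with LETS1 than with Co.vec under TGF-β (log2 fold change -1.56, edgeR adjusted p = 0.0394) on 1, 8 and 1 fragments, against 8, 11 and 11. That call was lost without Co.vec TGF-β replicate 2 or 3 or LETS1 TGF-β replicate 1 or 3 (up to 0.199), with no filter (0.0531), and with DESeq2 (0.0971). SOX15 passed in none of the 5 comparisons with edgeR.

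Partners and described targets of SOX factors went both ways with the ligand. Of 21 listed stem cell factors and described SOX2 partners or targets, 16 had enough counts to test. Among the untested, NANOG had at most 5 fragments in a library, LIN28A at most 1 and UTF1 at most 2. OTX2 and FGF4 had 0 in all 12 libraries. Of the 16 tested, 4 rose and 6 fell with ligand in LETS1 cells, and 4 rose and 7 fell in Co.vec cells. The list medians were -0.07 and -0.02. Over all genes tested the medians were -0.02 and -0.02, with 38.7% called in LETS1 cells and 39.7% in Co.vec cells. The zinc finger gene SALL2 fell by 1.70 on the log2 scale in LETS1 cells (edgeR adjusted p = 1.23e-08) and by 1.76 in Co.vec cells (5.16e-09). PAX6, an eye and brain factor that can act with SOX2, rose by 0.95 in LETS1 cells (edgeR adjusted p = 2.05e-08) and by 1.09 in Co.vec cells (1.44e-08). EGFR, the epidermal growth factor receptor gene, rose by 0.92 in LETS1 cells (edgeR adjusted p = 9.54e-19). It rose in Co.vec cells too, where it averaged 378 CPM with TGF-β and 201 CPM in buffer. The surface marker gene PROM1 fell by 1.28 in Co.vec cells (edgeR adjusted p = 0.0361), where it averaged 0.187 CPM with TGF-β and 0.464 CPM in buffer. In LETS1 cells PROM1 averaged 0.339 CPM with TGF-β and 0.440 CPM in buffer. With LETS1 in buffer 4 of the 16 rose and 3 fell, against 8.57% and 6.56% of all genes tested. ABCG2, a drug efflux pump gene, fell by 0.54 on the log2 scale (edgeR adjusted p = 5.63e-09), while PAX6 rose by 0.54 (0.00745) and ID1 by 0.49 (2.02e-07). With LETS1 under TGF-β 1 rose and 1 fell, PAX6 by 0.39 (edgeR adjusted p = 0.0130) and ABCG2 by 0.55 (3.74e-08). In that comparison 7.58% of all genes tested rose and 6.50% fell.

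Of 17 described SOX4 targets, 6 rose and 0 fell with TGF-β in LETS1 cells (17 were tested, and 11 did not pass), and 7 rose and 2 fell in Co.vec cells. The medians were 0.10 and 0.14, against -0.02 and -0.02 over all genes tested. Of all genes tested 19.7% rose and 19.1% fell in LETS1 cells, and 21.1% rose and 18.6% fell in Co.vec cells. In LETS1 cells the share of these targets called was near that of all genes. SEMA3C, a secreted semaphorin gene, rose by 0.38 on the log2 scale in LETS1 cells (edgeR adjusted p = 1.93e-08) and by 0.42 in Co.vec cells (2.60e-09). With LETS1 2 of the 17 rose and 1 fell in buffer, and 2 rose and 0 fell under TGF-β. Among all genes tested 8.57% rose and 6.56% fell in buffer, and 7.58% rose and 6.50% fell under TGF-β. TNC, the gene of the matrix protein tenascin C, rose with LETS1 by 0.59 under TGF-β (edgeR adjusted p = 0.000471) and by 0.47 in buffer (0.0105). Of 17 listed cartilage genes and SOX9 targets, 9 had enough counts to test, and the untested COL2A1 had at most 3 fragments in a library. Of the 9 tested, 4 rose and 5 fell with ligand in LETS1 cells, and 3 rose and 3 fell in Co.vec cells. Of all genes tested 38.7% were called in LETS1 cells and 39.7% in Co.vec cells. Their medians were -0.24 in LETS1 cells and -0.28 in Co.vec cells. Among them COL9A3, a cartilage collagen gene, rose by 1.68 in LETS1 cells (edgeR adjusted p = 0.00376) and by 1.39 in Co.vec cells (0.00666). With LETS1 1 of the 9 rose and 2 fell in each ligand state, while 15.1% of all genes tested were called in buffer and 14.1% under TGF-β. COL11A1, another collagen gene, rose by 1.72 under TGF-β (edgeR adjusted p = 7.82e-24) and by 1.59 in buffer (1.70e-23).

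Of 15 listed airway basal and squamous genes, the setting in which SOX2 acts in the airway, 11 had enough counts to test. Among the untested, KRT5 and DSG3 had at most 2 fragments in a library, and KRT13 had 0 in all 12 libraries. Of the 11 tested, 6 rose and 1 fell with TGF-β in LETS1 cells, and 5 rose and 2 fell in Co.vec cells. Among all genes tested 19.7% rose and 19.1% fell with ligand in LETS1 cells, and 21.1% rose and 18.6% fell in Co.vec cells. The list medians with ligand were 0.40 in LETS1 cells and 0.29 in Co.vec cells, against -0.02 and -0.02 over all genes tested. With LETS1 0 rose and 5 fell in buffer, and 0 rose and 3 fell under TGF-β. Of all genes tested 6.56% fell in buffer and 6.50% under TGF-β. The medians with LETS1 were -0.36 in buffer and -0.20 under TGF-β, against 0.01 and 0.00 over all genes tested. TP63, the basal cell factor, averaged 12.2 ± 0.596 CPM in LETS1 cells given TGF-β and 15.3 ± 0.746 CPM in Co.vec cells given TGF-β (SD, n = 3 each). In buffer it averaged 7.73 ± 0.461 CPM in LETS1 cells and 12.6 ± 1.77 CPM in Co.vec cells. Its log2 fold change with LETS1 was -0.33 under TGF-β (edgeR adjusted p = 0.0105) and -0.70 in buffer (1.05e-06). TRIM29 and the basal keratin gene KRT15 were lower with LETS1 too, by log2 fold changes of -0.75 and -0.71 under TGF-β (edgeR adjusted p = 5.68e-07 and 0.0109) and of -1.13 and -1.14 in buffer (2.22e-09 and 8.02e-05).

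The TCF and LEF factors carry a related HMG box and act in Wnt signalling, and TLE proteins are their co-repressors. Of 13 listed TCF, LEF and TLE genes and their cofactors, 12 had enough counts to test. LEF1 had at most 1 fragment in a library and was not tested. Of the 12 tested, 4 rose and 2 fell with TGF-β in LETS1 cells, and 4 rose and 3 fell in Co.vec cells. The medians were 0.07 and -0.02, and 38.7% of all genes tested were called in LETS1 cells and 39.7% in Co.vec cells. TCF7, which encodes a partner of SOX13, rose by 1.31 in LETS1 cells (edgeR adjusted p = 2.10e-17) and by 1.31 in Co.vec cells (1.41e-16). TCF7L1 rose by 1.07 in LETS1 cells (edgeR adjusted p = 2.43e-08) and by 1.01 in Co.vec cells (2.02e-08). With LETS1 2 of the 12 rose in buffer and 3 under TGF-β, and 0 fell in either. Among all genes tested 8.57% rose and 6.56% fell in buffer, and 7.58% rose and 6.50% fell under TGF-β. TCF7 rose by 0.33 in buffer (edgeR adjusted p = 0.00669) and by 0.33 under TGF-β (0.000621). Of the non-coding genes listed beside SOX members, CASC15, in the neighbourhood of SOX4, had 17.9, 17.4 and 19.1 CPM in LETS1 cells given TGF-β and 11.5, 11.6 and 10.9 CPM in LETS1 cells in buffer. In Co.vec cells it had 19.1, 17.0 and 15.3 CPM with TGF-β and 10.1, 10.1 and 9.72 CPM in buffer. The ligand raised it without overlap, by 0.68 on the log2 scale in LETS1 cells (edgeR adjusted p = 1.70e-08) and by 0.78 in Co.vec cells (1.58e-09). SOX9-AS1 had at most 11 fragments in a library and was not tested.

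The genes with the most similar pattern to each member were found by Pearson's correlation of log2 CPM over the 12 libraries, among 13820 genes with a mean of at least 1 CPM. They are a description, and the libraries share the 4 groups. For SOX4 they were ORAI2, PFKFB3 and CCDC80 (r = 0.995, 0.995 and 0.994). For SOX12 they were MAP3K12, AJM1 and HS6ST1 (0.989, 0.987 and 0.987), and for SOX2 they were PDK4, BAAT and HJURP (0.988, 0.988 and 0.984). SOX9 was matched less closely, by IMPA2, GCDH and LNP1 (0.978, 0.954 and 0.938), as was SOX13, by DACT2, SDK2 and S100A16 (0.969, 0.959 and 0.958).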

How the data were processed

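RNA of 12 A549 libraries was analysed. The authors deposited raw fragment counts per Ensembl gene, made per the submitters' processing notes with cutadapt 2.10, STAR 2.7.5a and HTSeq 0.12.4 on GRCh38. The strand setting and annotation release are not given in sources used here. The 5 rows of fragments given to no gene were left out of library sizes; genes held 80.0% to 81.1% of fragments. Symbols were matched by gene ID for 60357 of 60676 rows, coordinates and exon lengths came from GENCODE 29 (GRCh38), and promoters from RefSeq.

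Genes were filtered with filterByExpr (minimum count 10), scaled by TMM and fitted with edgeR 4.0.16 in R 4.3.3 (quasi-likelihood, robust, 1 mean per group, 12 libraries). P-values were adjusted by Benjamini-Hochberg over 16192 genes in each of 5 contrasts and called under 0.05; SE was taken as the absolute log2 change divided by the root of F. The procedure was tested on simulated data. Alternatives were RLE, no filter, DESeq2 1.42.0, a replicate block, the 6 libraries compared alone and each library left out.

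The members and lists were chosen with earlier results of these data known. Named were the 5 members, other SOX genes, the 3 most similar genes per member, and up to 3 called list members of largest change, of which some are not reported here. Replicate pairs differed by 2.16 to 5.24 times counting variance. Intervals and floors cover counting or replicate error only.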

Additional observations from a re-analysis of the deposited data

Results flagged for a closer look

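The ligand response differed between LETS1 and Co.vec cells, by the interaction test across all genes, for 3 genes named beside the SOX members and for 0 of the members themselves. The response in LETS1 cells minus that in Co.vec cells was -0.53 on the log2 scale for ID1 (edgeR adjusted p = 0.000397), -0.49 for SMAD7 (0.00846) and -0.43 for PMEPA1 (3.61e-05). In buffer LETS1 cells had higher levels of all 3 genes. ID1 rose by 0.28 with TGF-β in LETS1 cells and by 0.81 in Co.vec cells. It averaged 112 ± 8.67 CPM in LETS1 cells in buffer and 79.8 ± 6.04 CPM in Co.vec cells in buffer (SD, n = 3 each). Under TGF-β it averaged 136 CPM in LETS1 cells and 140 CPM in Co.vec cells. PMEPA1 had 247 to 272 CPM in LETS1 cells and 181 to 191 CPM in Co.vec cells in buffer. Under TGF-β it had 1118 to 1208 CPM in LETS1 cells and 1108 to 1175 CPM in Co.vec cells. SMAD7 had 35.0 to 43.0 CPM in LETS1 cells and 22.6 to 25.5 CPM in Co.vec cells in buffer. Under TGF-β it had 50.8 to 59.8 and 45.9 to 50.6 CPM.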

How the results depend on the processing

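Of 25 results on members, 20 kept direction and side of the threshold in all 16 or 17 alternatives, among them every SOX2, SOX4, SOX12 and SOX13 response to TGF-β. The cause of the others was not tested. For SOX9 the interaction of 0.43 passed at 0.44 with RLE (edgeR adjusted p = 0.0409), 0.45 with no filter (0.000983) and 0.43 with the replicate block (0.0426), so 1 member was called there. Leaving out libraries gave 0.35 to 0.50 and 0 to 1 members. Its fall in LETS1 cells was -0.29 to -0.15 with a library left out. Under TGF-β, LETS1 against Co.vec gave 0.082 to 0.16 for SOX4 (1 to 2 members called), -0.30 to 0.044 for SOX2 and -0.11 to 0.044 for SOX9, and the uncalled signs turned for SOX2 without Co.vec TGF-β replicate 3 (0.0053) or LETS1 TGF-β replicate 1 (0.044), and for SOX9 without Co.vec TGF-β replicate 1 (0.0082) or 2 (0.041) or LETS1 TGF-β replicate 3 (0.044). So did LETS1 against Co.vec in buffer for SOX18 without Co.vec buffer replicate 2 (0.086) or LETS1 buffer replicate 1 (0.059; range -0.56 to 0.086), and the interaction of SOX17 without Co.vec buffer replicate 3 (-0.0056), Co.vec TGF-β replicate 1 (-0.013) or LETS1 buffer replicate 2 (-0.084; range -0.084 to 0.13). Same-numbered libraries did not deviate together (0 of 18 pairs above 0.1), and the block changed counts of all calls by under 1.5 times, with 2297 against 2449 for LETS1 in buffer. It changed 2 other SOX calls: SOX17 in Co.vec cells was lost (0.0522), and SOX8 under TGF-β was gained (0.0229). Low counts limit SOX2 with ligand, SOX7 and SOX21.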

Other observations

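SOX21-AS1, a non-coding gene, was looked at after its values were seen. It had 13, 13 and 9 fragments in LETS1 cells given TGF-β, against 40, 49 and 25 in LETS1 cells in buffer. In Co.vec cells it had 21, 16 and 22 fragments with TGF-β, against 72, 92 and 53 in buffer. It fell with the ligand by 1.64 on the log2 scale in LETS1 cells (edgeR adjusted p = 2.30e-05) and by 1.83 in Co.vec cells (3.11e-08). LETS1 lowered it in buffer, with a log2 fold change of -0.95 (edgeR adjusted p = 0.000693). This fall and that with ligand in Co.vec cells share the Co.vec buffer libraries.

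Markers of other cell types were low. The 5 immune markers summed to at most 0.251 CPM and the 4 endothelial markers to at most 0.618 CPM in any library. Of 5 fibroblast markers LUM alone had enough counts to test, and it rose with LETS1 in both ligand states. It averaged 1.66 ± 0.202 CPM in LETS1 cells given TGF-β and 0.324 ± 0.182 CPM in Co.vec cells given TGF-β (SD, n = 3 each), a log2 fold change of 2.34 (edgeR adjusted p = 2.27e-06). In buffer it averaged 1.14 ± 0.419 CPM in LETS1 cells and 0.248 ± 0.0481 CPM in Co.vec cells, a log2 fold change of 2.17 (5.47e-05). The fibroblast markers summed to at most 2.29 CPM. The 5 neuroendocrine markers summed to 4.20 to 6.17 CPM over the 12 libraries, of which CHGA and SYP had enough counts to test and passed in none of the 5 comparisons, and INSM1 was at 0 in all libraries. The 3 basal or squamous markers summed to 7.36 to 16.6 CPM. Most of this sum was TP63, at 7.21 to 15.8 CPM. KRT14 reached at most 1.23 CPM, and KRT5 had at most 2 fragments in a library. The part of these markers in the SOX results was not tested.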
